A study of Homo sapiens with 8 samples.

Results

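The genes that make, store, recapture and break down catecholamines were examined in SK-N-SH, a line of human neuroblastoma cells. They were taken by symbol from a table of gene counts, and all 9 were found among its 60659 genes: TH, DBH, DDC, SLC18A1, SLC18A2, SLC6A2, MAOA, GCH1 and CYB561. Ribosomal RNA had been removed from the total RNA of the 8 libraries, 2 per group, and every group had received all-trans retinoic acid (ATRA, 10 µM, 24 h), an inducer of neuronal differentiation. Parental cells with doxycycline (Parental) were compared with cells that carried a lentiviral, doxycycline-inducible FLAG-ZMYND8, had been selected with G418 and also received doxycycline (ZMYND8 overexpression). In a separate experiment, cells with lentiviral shRNA against ZMYND8, a chromatin reader (ZMYND8 knockdown), stood against their own KD control cells, and the labels of these groups name no doxycycline. No library lacked ATRA, so the response to ATRA itself was not measured.

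As background, catecholamines are made from tyrosine in steps that sympathetic neurons and adrenal chromaffin cells share. Tyrosine hydroxylase (TH) makes L-DOPA with tetrahydrobiopterin, whose synthesis starts with GTP cyclohydrolase (GCH1). DOPA decarboxylase (DDC) makes dopamine, a vesicular monoamine transporter (SLC18A1 or SLC18A2) loads it, and dopamine beta-hydroxylase (DBH) turns it into noradrenaline inside the vesicle with electrons that cytochrome b561 (CYB561) passes from ascorbate. The noradrenaline transporter (SLC6A2) takes released noradrenaline back up, and monoamine oxidase A (MAOA) oxidises it. Neuroblastoma arises from the sympathetic lineage, and the release of catecholamines or their breakdown products is a known feature of the tumour.

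The sequences upstream of DBH and DDC are shown because these enzymes act in successive steps of the pathway. Their transcripts changed in the same direction in both experiments, by unequal amounts. Each is the 250 bases before an annotated start, taken from RefSeq on GRCh38.p14, and none of the 3 overlaps an annotated exon. Capitals mark matches, on either strand, to the core of the cyclic AMP response element (TGACGT), the homeodomain core (ATTA), the E-box (CANNTG), a GATA core (AGATAA) and an AP-2 site (GCCNNNGGC). The DBH window lies at chr9:133636113-133636362 on the plus strand. The distal DDC window lies at chr7:50565406-50565655 and the proximal one at chr7:50561072-50561321, both on the minus strand.
DBH: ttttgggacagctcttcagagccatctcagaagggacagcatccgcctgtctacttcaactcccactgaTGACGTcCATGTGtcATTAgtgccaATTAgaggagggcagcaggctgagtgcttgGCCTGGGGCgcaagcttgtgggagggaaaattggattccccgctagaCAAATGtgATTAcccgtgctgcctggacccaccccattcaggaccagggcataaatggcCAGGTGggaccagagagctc
DDC distal: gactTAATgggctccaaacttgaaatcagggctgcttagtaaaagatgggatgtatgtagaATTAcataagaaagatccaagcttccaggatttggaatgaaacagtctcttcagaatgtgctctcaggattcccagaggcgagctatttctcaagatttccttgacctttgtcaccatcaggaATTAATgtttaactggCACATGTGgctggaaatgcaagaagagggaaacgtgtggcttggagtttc
DDC proximal: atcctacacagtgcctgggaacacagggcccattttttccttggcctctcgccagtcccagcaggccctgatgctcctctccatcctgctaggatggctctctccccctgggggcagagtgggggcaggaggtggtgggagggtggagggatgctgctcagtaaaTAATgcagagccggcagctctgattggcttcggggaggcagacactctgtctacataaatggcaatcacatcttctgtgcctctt

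The DBH window held 1 cyclic AMP response element core, at positions -181 to -176 from the start, next to 3 ATTA matches, 3 E-boxes and an AP-2 match. The distal DDC window held 4 homeodomain cores, of which a pair overlapped, and 2 E-boxes that overlapped each other, and the proximal window held 1 homeodomain core. Of 35116 windows of the same length, 7.10% held TGACGT, 47.4% ATTA, 61.8% CANNTG, 9.17% AGATAA and 19.8% GCCNNNGGC. A match is a description of the letters and was not tested for use by any factor. RefSeq windows were used for 5 of the 9 genes, and no window of SLC18A1, on chromosome 8, was taken.

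Libraries held 38316523 to 56256979 counts on genes. ZMYND8 itself, the altered gene, rose by a log2 fold change of 5.87 ± 0.06 (SE) with overexpression and fell by 0.94 ± 0.06 with knockdown, so the knockdown libraries kept a fraction of 0.522 of the control level. Factors of the sympathetic lineage such as PHOX2A and HAND2 were present in every library, while INSM1 had 0 to 2 counts. Of the Schwann cell genes, SOX10 had 0 or 1 count and CDH19 0 to 2 counts per library. The dopamine transporter of midbrain neurons (SLC6A3) had 0 counts in 7 libraries and 1 in the other. The libraries are labelled as 2 biological replicates per group.

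Levels are given in TPM, counts per exon length scaled to the same sum in each library, which allows genes to be compared. Changes are log2 fold changes of normalized counts from edgeR's quasi-likelihood test, with SE and with p-values adjusted over all genes tested. A gene was called when its adjusted p was below 0.05, its absolute log2 fold change at least 1 and its mean normalized count above 20. The words rose and fell are used for an adjusted p below 0.05, whatever the fold. Scaling by total counts alone moved the median log2 fold change of all genes with overexpression from 0.03 to 0.29, so changes of that size depend on the scaling.

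**Figure D1:**
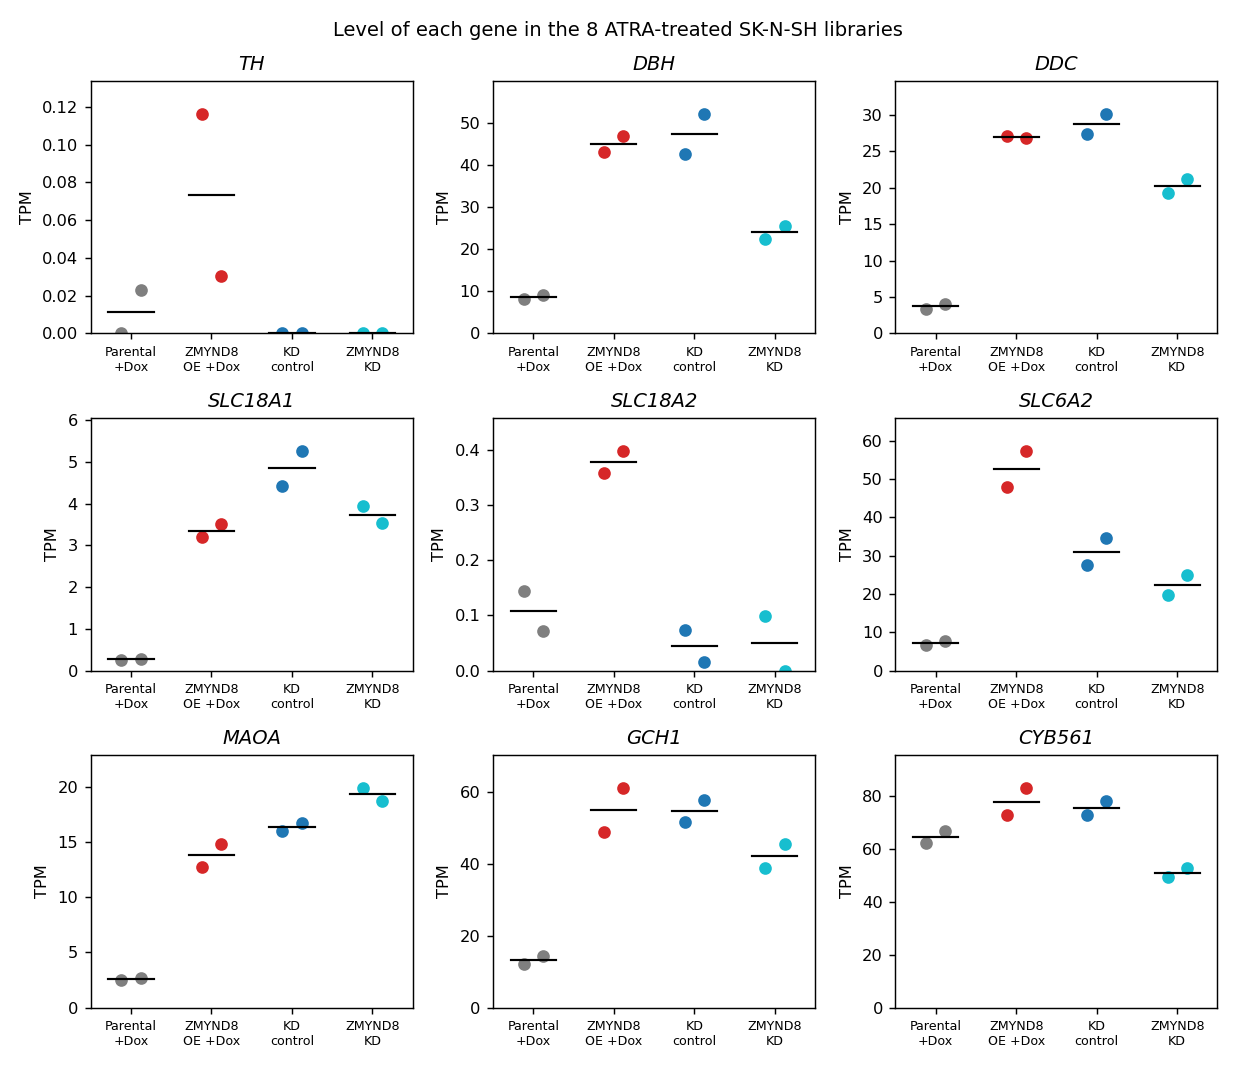
Level of the 9 genes in TPM (linear axes from 0, a scale per gene), with a point per library and a line at the mean of the 2 libraries of each group. For DBH, DDC, SLC18A1, SLC6A2, MAOA and GCH1 the Parental libraries lie below all other libraries, and TH stays at or below 0.116 TPM.

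TH, the first and usually rate-limiting enzyme of the pathway, was nearly absent in all groups. It had 0 counts in both KD control and both knockdown libraries, 0 and 1 in Parental, and 5 and 1 with overexpression. The highest level was 0.116 TPM, in an overexpression library. No exon base of TH (chr11:2163929-2171815, minus strand) was shared with another annotated gene and none of its 31-base sequences occurred on the alternate contigs of the genome. Its counts were too few for a test in any comparison, and no fold is given. At this depth a count of 0 allows up to 3 counts per library, for counting error only.

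DBH, further down the same pathway, was plentiful in the same cells. Measured per length against 3 counts of TH, DBH was at least 746 and 908 times as abundant in the KD control libraries. The same bound was at least 404 and 474 in the knockdown libraries and 100.4 in the Parental library with 0 TH counts. In the overexpression library with 5 TH counts the ratio was 370. Transcripts for the later steps were thus measured in every library without a comparable amount of TH.

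With overexpression, the later enzymes, the vesicular and plasma membrane transporters and monoamine oxidase A rose together. Of the 8 genes tested, 6 were called higher and 0 lower, where 11.8% of all 20835 genes tested were called higher and 6.84% lower. By adjusted p alone, 7 rose and 0 fell, where 31.7% of all genes rose and 29.1% fell. The median log2 fold change of the 8 was 2.26, beside 0.03 for all genes tested. These counts describe a chosen list, whose members were picked with earlier results known. The titles of Parental name no vector or selection, so ZMYND8, the lentiviral vector and G418 selection cannot be told apart in this comparison.

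DBH (ENSG00000123454, chr9:133636363-133659329) measured 8.08 and 9.02 TPM in Parental and 43.0 and 46.8 TPM with overexpression. The groups did not overlap, and DBH rose 4.75-fold (log2 fold change 2.25 ± 0.08, adjusted p = 3.3e-09). DDC (ENSG00000132437, chr7:50458436-50565405), the decarboxylase, measured 3.40 and 4.03 TPM in Parental and 27.1 and 26.8 TPM with overexpression. It rose 6.55-fold (log2 fold change 2.71 ± 0.11, adjusted p = 7.66e-09). GCH1 (ENSG00000131979, chr14:54842008-54902826), which starts cofactor synthesis, measured 12.3 and 14.3 TPM in Parental and 48.95 and 61.1 TPM with overexpression. Its rise was 3.72-fold (log2 fold change 1.90 ± 0.09, adjusted p = 3.16e-08), the smallest among the 6 genes called.

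The vesicular transporters differed in level. SLC18A1 (ENSG00000036565, chromosome 8), the form known from chromaffin cells, measured 0.262 and 0.280 TPM in Parental, from 12 and 15 counts, and 3.20 and 3.51 TPM with overexpression. It rose 11.1-fold (log2 fold change 3.47 ± 0.24, adjusted p = 4.15e-07), the largest change among the members. SLC18A2 (ENSG00000165646, chr10:117241093-117279430), the form of most monoamine neurons, had 7 and 4 counts in Parental and 20 and 17 with overexpression. Its level stayed at or below 0.398 TPM, and 56.4% of its exon bases lie opposite other genes. Its log2 fold change of 1.68 ± 0.50 passed the adjusted p (0.0136) but not the mean count. It missed the adjusted p with DESeq2 (0.111), with all 8 libraries in the fit (0.0629), without Parental replicate 2 (0.136), and without overexpression replicate 1 (0.0806) or 2 (0.0814).

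SLC6A2 (ENSG00000103546, chr16:55655604-55706192), the noradrenaline transporter, measured 6.62 and 7.67 TPM in Parental and 47.9 and 57.3 TPM with overexpression. The rise was 6.63-fold (log2 fold change 2.73 ± 0.08, adjusted p = 6.77e-10), and 17.9% of its exon bases are shared with another gene on its strand. MAOA (ENSG00000189221, chrX:43654907-43746824) measured 2.50 and 2.67 TPM in Parental and 12.7 and 14.9 TPM with overexpression. It rose 4.81-fold (log2 fold change 2.26 ± 0.10, adjusted p = 1.83e-08), so an enzyme of breakdown rose with those of synthesis. For each of the 6 genes called, every one of 14 other settings kept the direction and an adjusted p below 0.05.

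CYB561 (ENSG00000008283, chr17:63432304-63446354), which supplies DBH with electrons, stood apart from its partner. It measured 62.5 and 67.0 TPM in Parental and 72.9 and 83.1 TPM with overexpression, the highest level of any member in both groups. Its log2 fold change of 0.12 ± 0.05 did not pass (adjusted p = 0.0628), and the call depended on the processing. CYB561 passed as higher with upper quartile scaling (0.20, adjusted p = 0.00646), with total counts only (0.38, adjusted p = 6.04e-05) and without overexpression replicate 1 (0.17, adjusted p = 0.0183). Its sign turned to -0.12 with a recentred correction for gene length and GC content (adjusted p = 0.0594) and to -0.40 with that correction as fitted, where it passed as lower (adjusted p = 5.71e-05).

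**Figure D2:**
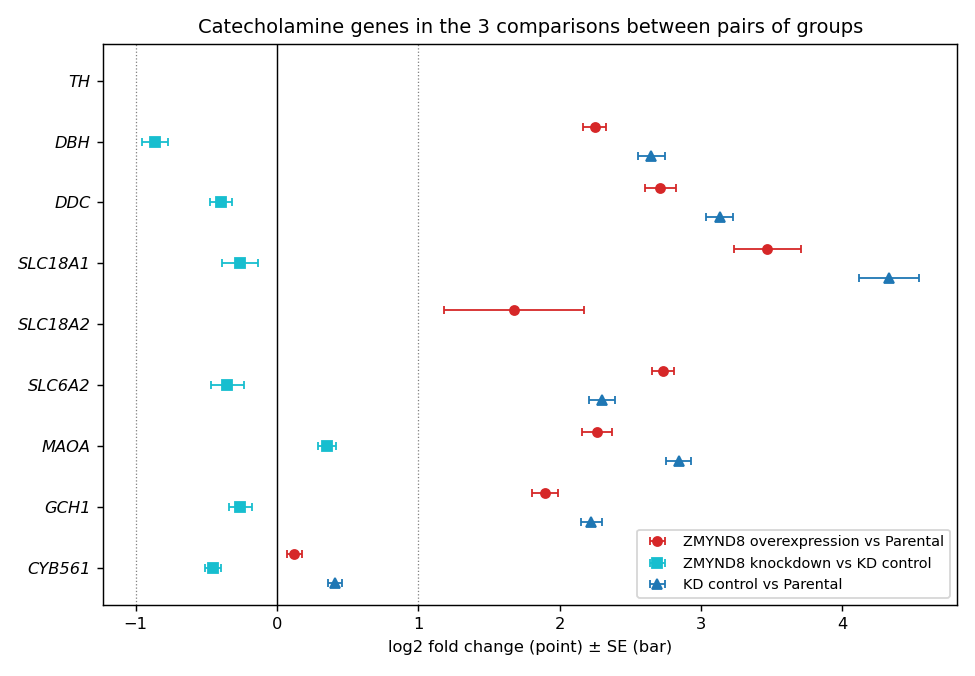
Log2 fold change (points) with SE (bars) of each member in 3 comparisons, with dotted lines at -1 and 1. TH was not tested, and SLC18A2 had enough counts in the overexpression comparison but not in the other two. Squares for knockdown lie between -0.86 and 0.35, while the points and triangles of the 6 genes called lie at 1.90 or above.

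With knockdown the changes were smaller and MAOA moved the other way. Of the 7 members tested, 0 were called in either direction, where 1.36% of the 19789 genes tested were called higher and 0.596% lower. DESeq2 also called 0. In edgeR 6 members had an unadjusted p below 0.05, a limit for which the share of all genes is not given. By adjusted p alone 5 fell and 1 rose, where 10.8% of all genes fell and 13.4% rose, and the 5 include SLC6A2 and GCH1, whose calls were lost under several settings. The median log2 fold change of the 7 was -0.35, beside -0.01 for all genes tested.

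DBH measured 42.5 and 52.1 TPM in KD control and 22.4 and 25.6 TPM with knockdown, and the groups did not overlap. It had the largest change of the members, with a log2 fold change of -0.86 ± 0.09 (adjusted p = 0.000102), which left 0.55 of the control level. DDC measured 27.4 and 30.1 TPM in KD control and 19.2 and 21.2 TPM with knockdown (log2 fold change -0.39 ± 0.08, adjusted p = 0.00417). CYB561 also fell, from 73.1 and 78.3 TPM to 49.4 and 52.8 TPM (log2 fold change -0.45 ± 0.06, adjusted p = 0.000234).

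MAOA measured 16.0 and 16.7 TPM in KD control and 19.9 and 18.7 TPM with knockdown. It was the only member that rose (log2 fold change 0.35 ± 0.06, adjusted p = 0.00214), and all 14 other settings kept this sign with an adjusted p of at most 0.0268. SLC6A2, at 27.5 and 34.6 TPM in KD control and 19.8 and 25.1 TPM with knockdown, had a log2 fold change of -0.35 ± 0.11 (adjusted p = 0.0468). GCH1, at 51.7 and 57.9 TPM in KD control and 38.9 and 45.6 TPM with knockdown, had a log2 fold change of -0.26 ± 0.08 (adjusted p = 0.0421).

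The calls of SLC6A2 and GCH1 were lost when single libraries were left out. Without KD control replicate 2 the adjusted p was 0.327 for SLC6A2 and 0.227 for GCH1, and without knockdown replicate 1 it was 0.108 and 0.257. Without KD control replicate 1 GCH1 had 0.0636, DESeq2 gave 0.275 for SLC6A2, and with no filter on low counts the values were 0.214 and 0.175. SLC18A1, at 4.43 and 5.26 TPM in KD control and 3.94 and 3.53 TPM with knockdown, did not pass (log2 fold change -0.26 ± 0.13, adjusted p = 0.175). SLC18A2 had 5 and 1 counts in KD control and 7 and 0 with knockdown and was not tested.

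Whether overexpression and knockdown differed in their effects was asked in 1 model over all 8 libraries. Of the 8 members tested, 6 were called with a higher value under overexpression and 0 with a lower one, where 11.1% of the 22619 genes tested were called higher and 7.66% lower. By adjusted p alone 7 were higher and 0 lower, where 24.6% of all genes were higher and 24.4% lower. The difference was 3.10 ± 0.13 for DBH, 3.10 ± 0.13 for DDC, 3.07 ± 0.16 for SLC6A2 and 3.73 ± 0.26 for SLC18A1 on the log2 scale. For MAOA, which rose in both experiments, it was 1.91 ± 0.11 (adjusted p = 2.01e-09). CYB561 differed by 0.57 ± 0.08 (adjusted p = 2.94e-05), and SLC18A2 by 1.41 ± 1.36 (adjusted p = 0.426). By its definition this difference also contains the gap between KD control and Parental, which is given next.

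The controls of the 2 experiments also differed in the 6 genes called with overexpression. Against Parental, 6 of 7 members tested were called higher in KD control and 0 lower, where 10.8% of the 20385 genes tested were called higher and 10.8% lower. By adjusted p alone 7 were higher and 0 lower, where 33.6% of all genes were higher and 36.2% lower. ZMYND8 was at 24.8 and 26.9 TPM in KD control and 34.6 and 34.6 TPM in Parental. Experiment, doxycycline and vector cannot be told apart in this comparison, which shares the Parental libraries with that of overexpression. Vector and selection likewise cannot be told apart from ZMYND8 in the overexpression comparison.

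Side by side, the log2 difference from Parental was 2.65 ± 0.09 in KD control and 2.25 ± 0.08 with overexpression for DBH. It was 3.13 ± 0.10 and 2.71 ± 0.11 for DDC, and 4.33 ± 0.21 and 3.47 ± 0.24 for SLC18A1. The values for SLC6A2 were 2.30 ± 0.09 and 2.73 ± 0.08, those for MAOA 2.84 ± 0.09 and 2.26 ± 0.10, and those for GCH1 2.22 ± 0.07 and 1.90 ± 0.09. In TPM, the overexpression and KD control libraries overlapped for DBH, GCH1 and CYB561. They did not overlap for SLC6A2, higher with overexpression, or for DDC, SLC18A1 and MAOA, higher in KD control. For DDC the nearest libraries lay at 27.07 TPM with overexpression and 27.41 TPM in KD control. These 2 groups were not compared by a test, and the share of all genes without overlap is not given. Parental libraries were the lowest of the 8 for the 6 genes called. For SLC18A2, in contrast, KD control had 5 and 1 counts beside 20 and 17 with overexpression.

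The order of the levels was much the same in every group. CYB561 led with mean levels of 51.1 to 78.0 TPM, and GCH1 came next with 13.3 to 55.0 TPM. In KD control GCH1 and DBH overlapped, as did SLC6A2 and DDC, so their order there is within the spread of the libraries. With knockdown DBH, SLC6A2, DDC and MAOA, at mean levels of 24.0, 22.4, 20.2 and 19.3 TPM, overlapped each with the next. With overexpression SLC6A2 (52.6 ± 6.62 TPM, SD, n = 2) came above DBH (44.9 ± 2.69 TPM) and overlapped with GCH1 (55.0 ± 8.59 TPM). SLC18A1, SLC18A2 and TH were the 3 lowest in all groups.

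Ratios within a library do not depend on its depth and show how the balance of the members shifted. Per length, SLC6A2 to DBH was 0.820 and 0.850 in Parental, 1.11 and 1.22 with overexpression, 0.646 and 0.663 in KD control, and 0.881 and 0.979 with knockdown. The ratio was thus higher in the altered cells of both experiments than in their own controls, with no overlap. DDC to DBH was 0.421 and 0.447 in Parental and 0.629 and 0.572 with overexpression. It was 0.644 and 0.577 in KD control and 0.858 and 0.827 with knockdown, again higher than in the controls. With 2 libraries per group no exact test of a ratio could pass, and none was run.

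Both monoamine oxidases were expressed, and their ratio differed between the groups. MAOB, the other form, measured 4.21 and 4.29 TPM in Parental and 46.7 and 55.6 TPM with overexpression. The ratio of MAOA to MAOB was 0.593 and 0.622 in Parental and 0.272 and 0.267 with overexpression. It was 0.501 and 0.451 in KD control and 0.782 and 0.679 with knockdown, where MAOA rose and MAOB fell (log2 fold change -0.26 ± 0.08, adjusted p = 0.0327). SLC18A1 to SLC18A2 was 1.81 and 3.96 in Parental and 8.91 and 8.81 with overexpression, and 60.6 in the KD control library with 5 counts of SLC18A2.

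**Figure D3:**
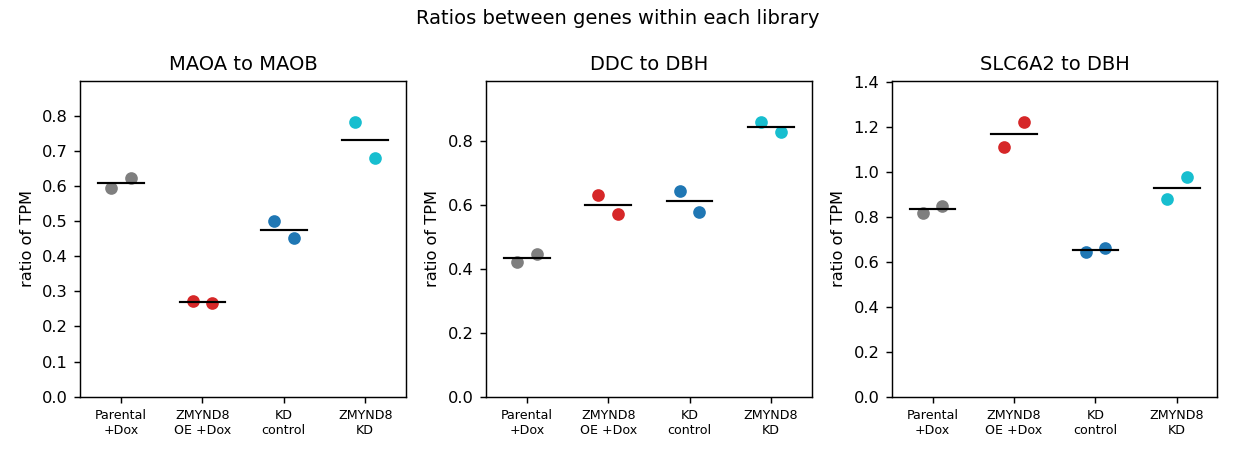
Ratio of the TPM of 2 genes within each library (axes from 0), with a point per library and a line at the group mean. MAOA to MAOB is lowest with overexpression, at 0.272 and 0.267, and DDC to DBH is highest with knockdown, at 0.858 and 0.827.

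Among 15 further genes of synthesis and cofactor supply, 1 was called higher and 4 lower with overexpression, beside 11.8% and 6.84% of all genes tested. With knockdown 0 were called, beside 1.36% higher and 0.596% lower of all genes. PNMT, which makes adrenaline from noradrenaline, had 1 and 6 counts in Parental and 57 and 44 with overexpression, and 21 and 23 in KD control. The ratio of its summed counts per total was 16.7 (exact 95% interval 7.80 to 42.5, counting error only), and its log2 fold change was 3.76 ± 0.47 (adjusted p = 4.62e-05). The genes that make or recycle tetrahydrobiopterin after GCH1 had small changes: PTS, SPR, QDPR and PCBD2 did not pass (log2 fold changes of -0.13 to 0.15), and PCBD1 rose by 0.15. GCHFR, which binds GCH1 and lets tetrahydrobiopterin inhibit it, rose by 0.85 ± 0.25 (adjusted p = 0.0126) but has 77.6% of its exon bases opposite another gene.

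The 4 called lower with overexpression concern neighbours of the pathway. MOXD1, a relative of DBH, measured 462 and 503 TPM in Parental and 136 and 155 TPM with overexpression (log2 fold change -1.87 ± 0.05, adjusted p = 7.44e-10). CYBRD1, a relative of CYB561, fell by 1.29 on the log2 scale. The amino acid transporters SLC7A5 and SLC7A8, which carry tyrosine among others, fell by 1.30 and 1.28, and SLC3A2, the partner chain of both, fell by 0.70. ATP7A, a copper pump that serves enzymes such as DBH, rose by 0.72 ± 0.05.

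Among 16 genes of transport and breakdown, 11 had enough counts with overexpression, and 2 of these were called higher and 0 lower, near the 11.8% and 6.84% of all genes. With knockdown 0 of 10 were called, beside 1.36% and 0.596% of all genes. MAOB rose 10.9-fold (log2 fold change 3.44 ± 0.09, adjusted p = 4.75e-10). SLC29A4, a plasma membrane monoamine transporter of low affinity, measured 21.2 and 24.8 TPM in Parental and 82.5 and 98.0 TPM with overexpression (log2 fold change 1.83 ± 0.07, adjusted p = 5.98e-09). The aldehyde dehydrogenases ALDH2 and ALDH3A2 rose by 0.32 and 0.22, and ALDH9A1 fell by 0.66.

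With knockdown edgeR and DESeq2 each called 0 genes of both lists. By adjusted p in edgeR, 3 of 15 synthesis genes rose and 2 fell, and 1 of 10 transport and breakdown genes rose and 1 fell. Of all genes tested, 13.4% rose and 10.8% fell. An unadjusted p below 0.05 was found for 6 synthesis genes and 3 transport and breakdown genes, and the share of all genes at that limit is not given. SLC7A8 fell by 0.89 on the log2 scale, the largest change in these lists, and CYBRD1 rose by 0.61. The difference of the 2 effects was called for MAOB (3.70 ± 0.13), SLC29A4 (1.76 ± 0.09), PNMT (3.71 ± 0.59), MOXD1 (-1.89 ± 0.07), SLC7A5 (-1.39 ± 0.17), CYBRD1 (-1.91 ± 0.08) and GCHFR (1.33 ± 0.50).

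Between the controls, MAOB was higher in KD control by 3.20 ± 0.09, with 31.9 and 37.0 TPM, and SLC29A4 was not (-0.03 ± 0.07, adjusted p = 0.715). Also called higher in KD control were SLC7A8 (2.13) and ATP7A (1.37), and called lower were CYBRD1 (-1.94), MOXD1 (-1.63), SULT1A3 (-1.35) and SPR (-1.18). SULT1A3 shares 70.7% of its exon bases with a readthrough gene and is uncertain. SLC29A4 and SLC7A8 thus had different values in the 2 comparisons with Parental.

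**Figure D4:**
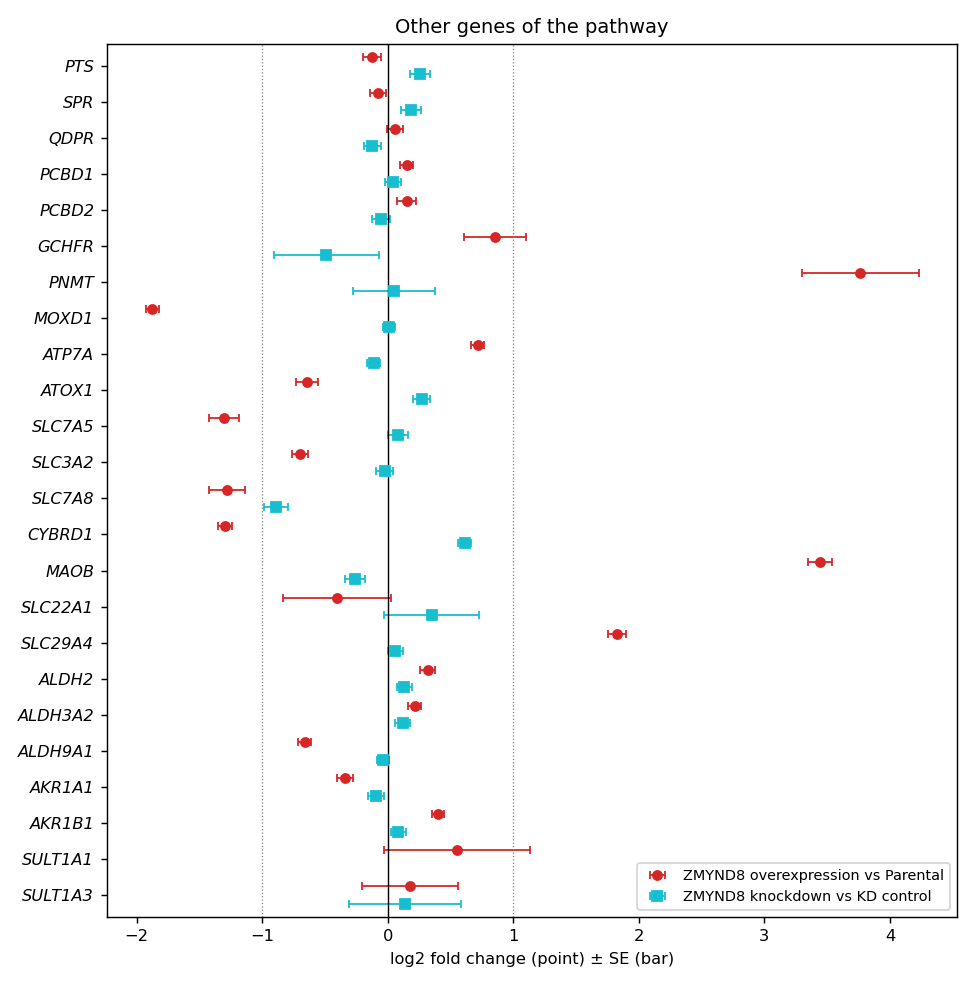
Log2 fold change (points) with SE (bars) of the other genes of the pathway tested with overexpression (circles) and knockdown (squares), with dotted lines at -1 and 1. MAOB (3.44), PNMT (3.76) and SLC29A4 (1.83) lie beyond 1 with overexpression, MOXD1 (-1.87), SLC7A5, CYBRD1 and SLC7A8 beyond -1, and no square lies beyond either line.

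Genes for transcription factors known to act on the catecholamine genes or in the sympathetic lineage changed as follows. Of 13 tested, 7 were called higher and 0 lower with overexpression, beside 11.8% and 6.84% of all genes. With knockdown 0 of 12 were called by edgeR, beside 1.36% higher and 0.596% lower of all genes. By adjusted p 1 rose and 3 fell, beside 13.4% and 10.8% of all genes. An unadjusted p below 0.05 was found for 5, and the share of all genes at that limit is not given. PHOX2A, a homeodomain factor of noradrenergic neurons, measured 212 and 226 TPM in Parental and 351 and 396 TPM with overexpression, a rise of 0.63 ± 0.05.

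GATA2 measured 18.1 and 18.5 TPM in Parental, 307 and 342 TPM with overexpression, 119 and 137 TPM in KD control, and 79.6 and 86.0 TPM with knockdown. It rose with overexpression (log2 fold change 4.0 ± 0.06, adjusted p = 1.72e-11) and fell with knockdown (-0.51 ± 0.06, adjusted p = 0.000251), in the same directions as DBH. TFAP2B rose by 3.56 ± 0.10, HAND2 by 1.82 ± 0.05, EGR1 by 1.35 ± 0.08 and NR4A1 by 1.16 ± 0.12 with overexpression.

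With knockdown PHOX2A fell by 0.37 and HAND2 by 0.25, EGR1 rose by 0.21, and TFAP2B did not pass (-0.17 ± 0.11). KD control lay above Parental for TFAP2B (3.19), GATA2 (2.99), EGR1 (1.92), GATA3 (1.19) and HAND2 (1.13), all called, and below it for NR4A2 (-1.58). HAND2 has 24.1% of its exon bases opposite an antisense gene.

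**Figure D5:**
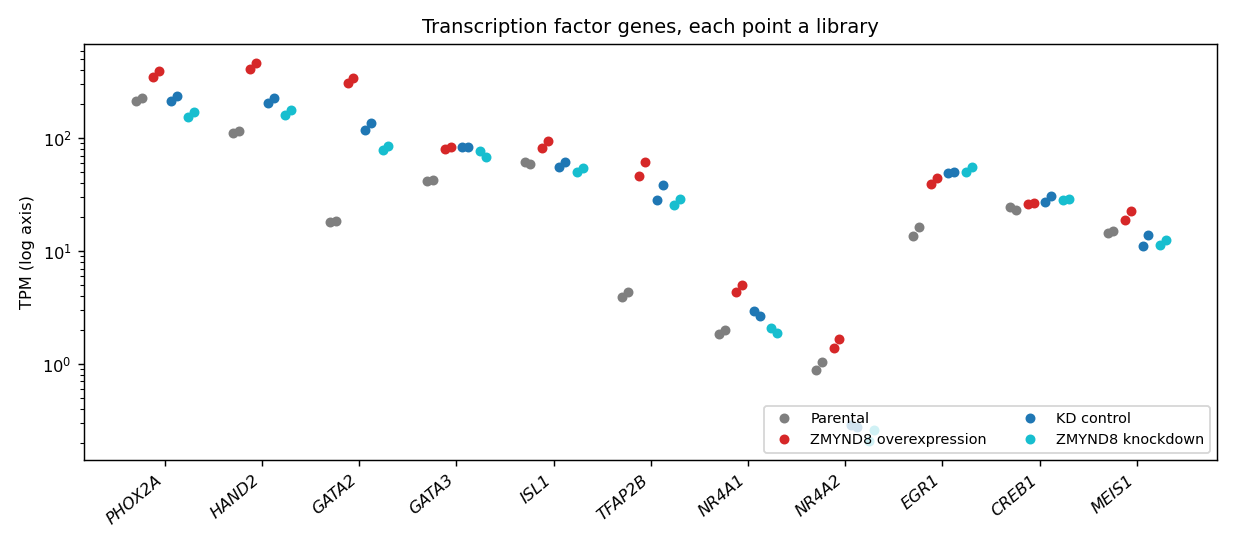
Level in TPM (log axis) of transcription factor genes, with a point per library. GATA2 and TFAP2B are lowest in Parental and highest with overexpression, with the knockdown experiment between.

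Markers of the mesenchymal state of neuroblastoma cells also changed, though not all in the same direction. Their summed level was 6778 and 7440 TPM in Parental, 3041 and 3146 with overexpression, 3092 and 3161 in KD control, and 3798 and 3562 with knockdown, with all 14 markers above 3 counts in every library. With overexpression 8 of 14 were called lower and 1, TWIST1, higher, beside 6.84% and 11.8% of all genes. With knockdown 9 rose and 2 fell by adjusted p, beside 13.4% and 10.8% of all genes, with 0 called. The 2 that fell were PRRX1 (log2 fold change -0.98 ± 0.05), the largest change of the 14, and SNAI2 (-0.41 ± 0.10). PRRX1 measured 49.8 and 52.8 TPM in KD control and 24.8 and 23.4 TPM with knockdown. The sum rests mainly on COL1A1, COL3A1 and VIM, with means of 1665, 1600 and 1578 TPM in Parental, and does not show PRRX1. The summed level of the 9 catecholamine genes was 95.8 and 105 TPM in Parental, 256 and 294 with overexpression, 243 and 275 in KD control and 174 and 193 with knockdown. In bulk RNA, fewer cells of a type and less RNA per cell cannot be told apart, and the part of the mesenchymal markers in the results was not tested.

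Markers of other transmitters gave a mixed picture. The acetylcholine vesicle transporter SLC18A3 rose by 2.90 ± 0.17 with overexpression, while the choline transporter SLC5A7 fell by 4.71 ± 0.08, from 56.5 and 63.9 TPM to 2.59 and 2.45 TPM. Of the other cholinergic genes ACHE rose by 2.64 ± 0.15, and CHAT had 0 and 1 counts in Parental and 5 and 5 with overexpression. FEV, a factor of serotonin neurons, measured 1.08 and 1.76 TPM in Parental and 108 and 115 TPM with overexpression, while the serotonin genes TPH1, TPH2 and SLC6A4 stayed at or below 13 counts in every library. Of the midbrain genes FOXA2 had 0 counts in 6 libraries and 47 and 30 with overexpression, at least 14.5-fold higher than 3 counts per Parental library would give. Of the glial genes S100B and ERBB3 were called higher with overexpression. KD control differed from Parental in the same direction for several of these genes. It had FEV at 32.9 and 35.7 TPM, SLC5A7 at 6.86 and 8.01 TPM, and SLC18A3 at 20.5 and 18.5 TPM beside 2.19 and 2.97 TPM in Parental. S100B measured 3.75 and 3.27 TPM in KD control and 0.567 and 0.445 TPM in Parental. FOXA2 and ERBB3 were not higher in KD control than in Parental. The part of these cell type markers in the results was not tested.

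The 3 genes whose pattern over the 8 libraries was nearest to that of DBH, by Euclidean distance of centred log2 normalized counts among 22619 genes, were SCN3A (0.481), LMNTD1 (0.502) and ZNF727 (0.552). SCN3A encodes a voltage-gated sodium channel subunit. No such genes are given for TH, which had too few counts.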

How the data were processed

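Total RNA of 8 ATRA-treated SK-N-SH libraries in 4 groups of 2 was used. The authors deposited counts, whole numbers of reads per gene with no normalization, and the summed exon length of each gene. Their methods name Trim_Galore for trimming, removal of reads with Phred scores under 25, Hisat2 alignment on GRCh38, featureCounts with annotation from GENCODE (release 28) and DESeq2. The strand setting is not given in the sources used here, so a gene and an overlapping gene on either strand cannot be told apart. Of 60662 lines, 3 belonging to 1 gene split over lines were left out. Names of 60418 genes, exons and overlaps came from GENCODE release 44.

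Groups were taken from titles and treatments. Each comparison used filterByExpr, TMM and edgeR's quasi-likelihood test, two-sided, with Benjamini-Hochberg adjustment over all genes tested in edgeR 4.0.16 with limma 3.58.1 under R 4.3.3. Calls needed a mean normalized count above 20, a log2 fold change of 1 or more in size, and an adjusted p below 0.05. The study's methods set these limits on a p-value, the base mean and a 1-fold change. The last was read here as a log2 fold change of 1, an assumption, and the p was replaced by an adjusted p. Alternatives were other normalizations, DESeq2 (1.42.0), no low-count filter, all libraries in 1 fit, a replicate block with and without a gene length correction, length and GC corrections, other thresholds, and leaving out each library. Fits were tested on simulated data. No pair of replicates agreed within counting noise (chi-square per degree of freedom 6.05 to 8.86). Whether replicates are separate cultures is not stated beyond the word biological, so p-values measure the spread between these libraries. Intervals cover counting error only. The members and lists were chosen with earlier results of these data known. All members are named, as are genes of the synthesis, transport and regulator lists called in a comparison and the 3 genes nearest to DBH. Some list genes are counted but not reported here by name. Values of marker genes and of list genes that were not called were chosen after they were seen.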

Additional observations from a re-analysis of the deposited data

Results flagged for a closer look

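The effects of overexpression and knockdown on 7 members and 12 other named genes differed by the test of the difference itself (edgeR's quasi-likelihood test over all 8 libraries). Of all 22619 genes tested, 24.6% were higher and 24.4% lower by adjusted p, and 11.1% and 7.66% were called. ZMYND8 itself changed by 5.87 with overexpression and by -0.94 with knockdown on the log2 scale, so the test compares changes of opposite direction and unequal size. The difference, overexpression effect minus knockdown effect on the log2 scale, was 3.10 for DBH, 3.10 for DDC, 3.73 for SLC18A1, 3.07 for SLC6A2, 1.91 for MAOA, 2.15 for GCH1 and 0.57 for CYB561. The difference for CYB561 did not pass with the length and GC correction as fitted (0.06, adjusted p = 0.592). MAOA is the member that rose in both experiments.

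Among the other genes the difference was 3.70 for MAOB, 1.76 for SLC29A4, 3.71 for PNMT, 1.33 for GCHFR, -1.89 for MOXD1, -1.39 for SLC7A5 and -1.91 for CYBRD1. It was 4.51 for GATA2, 3.72 for TFAP2B, 2.06 for HAND2, 1.54 for NR4A1 and 1.13 for EGR1. Written out, the difference is overexpression minus knockdown plus KD control minus Parental, so the gap between the controls is part of it. That gap was 2.65 for DBH, 3.13 for DDC, 4.33 for SLC18A1 and 2.30 for SLC6A2. It was 2.84 for MAOA, 2.22 for GCH1 and 0.41 for CYB561. In TPM, the knockdown libraries lay above the overexpression libraries for SLC18A1 and MAOA. They lay below for DBH, DDC, SLC18A2, SLC6A2, GCH1 and CYB561, while TH had too few counts to compare. These 2 groups were not compared by a test, and the share of all genes without overlap is not given. What made the controls differ was not tested.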

How the results depend on the processing

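Of 444 recomputed fold changes of members, 420 kept their direction and their side of the threshold, 16 lost it, 5 gained it and 3 changed sign. The counts of members called (6, 0, 6 and 6 for overexpression, knockdown, their difference and the controls) were the same without each library in turn, and under the other settings for the fit. Without a fold threshold the knockdown count became 6 and those of the difference and the controls 7, and with a mean above 100 that of overexpression became 5. Members lower with knockdown by adjusted p numbered 3 with no low-count filter and 3 to 5 without a library (3 without KD control replicate 2 and without knockdown replicate 1), and with overexpression 1 after the length and GC correction as fitted (CYB561). Members higher by adjusted p ranged from 6 to 7 for overexpression and from 7 to 8 for the difference without a library. Without a fold threshold, the other pathway genes called numbered 19, 7, 17 and 18 for overexpression, knockdown, their difference and the controls. Tested were 15 synthesis genes and 11 transport and breakdown genes (10 with knockdown). By adjusted p alone, 31.7% of all genes were higher and 29.1% lower with overexpression, and 13.4% and 10.8% with knockdown. The shares were 24.6% and 24.4% for the difference, and 33.6% and 36.2% for the controls. Signs changed for CYB561 with overexpression (-0.396 with the length and GC correction as fitted, -0.125 recentred) and for SLC18A2 in the difference (-0.097 without KD control replicate 1, beside 6.21 without knockdown replicate 1, which leaves a library with 0 counts). The cause was not tested. Total counts in place of TMM moved the median of all genes to 0.29 for overexpression and the share of calls that were higher from 63.2% to 75.7%, and the length and GC correction as fitted moved them to -0.24 and 46.6%.

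With the replicate number as a replicate block the counts of members called were 6, 0, 6 and 6, and CYB561 passed with overexpression (0.124, adjusted p = 0.0385). Same-numbered libraries share only a number: the correlation of their deviations was 0.01 for overexpression, -0.01 for knockdown and -0.03 for the controls, with 2 pairs each. Counts of 0 to 7 limit TH and SLC18A2 outside overexpression.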
